A study of Mus musculus with 12 samples.

Results

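The Aurora kinases and the proteins that place and activate them were followed by their mRNAs in mouse oocytes. The genes were chosen by name, with earlier results of these data known. They are the 3 Aurora kinases (Aurka, Aurkb and Aurkc) and the Aurora A activator Tpx2. The others are the 3 non-enzymatic subunits of the chromosomal passenger complex (Incenp, Birc5 and Cdca8). All 7 were found among the 23230 genes of the table. None was listed at 0 in any of the 12 libraries, and all 7 were among the 11502 genes that reached 1 FPKM in some library and were tested. WT and Zar1/2-null oocytes of a C57BL6/ICR hybrid strain were compared at 3 stages: growing oocytes, fully grown oocytes with a germinal vesicle (GV), and ovulated oocytes labelled MII. Each of the 6 groups had 2 libraries of 10 oocytes. By the labels, growing oocytes came from 13.5-day-old females, where the methods give 12 days, and GV oocytes from 21-day-old females 44 h after PMSG, a hormone that stimulates follicle growth. The MII group was collected 16 h after hCG, the hormone that triggers ovulation. The labels give no age for this group. By the methods, superovulated females were 21 to 23 days old and received PMSG 44 h before hCG. The null females lacked Zar1 and Zar2, a pair of oocyte RNA-binding protein genes, in every cell, through germline knockouts made with CRISPR/Cas9, and no treatment other than the hormones is described. By the study's account many null oocytes had not reached metaphase II when they were ovulated, so the null MII group is defined by its collection time. In these libraries a difference at MII cannot be told apart from a difference in meiotic stage. In a separate RT-qPCR experiment, the study found selected mRNAs still degraded in oocytes held in meiosis I with nocodazole. No library here comes from such oocytes. The labels do not say whether the 2 libraries of a group came from separate females, so the p-values measure the spread between libraries, which may be technical, and the comparisons share libraries with one another. A lower value can mean fewer transcripts in each of the 10 oocytes or fewer intact oocytes in the pool, which cannot be told apart in such samples.

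Aurora kinases are serine/threonine kinases of cell division. Aurora A acts at spindle poles, where TPX2 binds and activates it, and it takes part in the resumption of oocyte meiosis. Aurora B works at centromeres and on the central spindle as the enzyme of the chromosomal passenger complex, in which INCENP is the scaffold and activator while survivin (the product of Birc5) and borealin (the product of Cdca8) bring the complex to chromatin. Aurora C is a close relative of Aurora B that takes its place in the complex mainly in germ cells, and mouse oocytes hold all 3 kinases. Since a fully grown oocyte is transcriptionally silent, the mRNAs that supply these proteins during the meiotic divisions are made during growth, stored, and then translated or degraded during maturation.

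The values are FPKM, read counts set against transcript length and the mapped reads of the library, which the authors multiplied by a factor per library from the share of ERCC spike-in reads. They are per length, so levels of different genes may be compared roughly. Oligo-dT priming and the use of uniquely mapped reads alone may also affect such a comparison, and their part was not tested. As recovered from the values, these factors were 1 for the WT growing libraries. They were between 0.225 and 0.283 for the 4 libraries of MII oocytes, so the scaling lowers every MII level. The factors also differed between the genotypes within a stage. They were 0.862 and 0.779 in null growing libraries. At GV they were 0.836 and 0.697 in WT and 0.533 and 0.583 in null libraries. At MII they were 0.225 and 0.228 in WT and 0.283 and 0.252 in null libraries. The scaling thus lowers null values against WT in growing and GV oocytes and raises them at MII. The fits were therefore repeated with the ERCC factor divided out and with all libraries set to one median, and calls that changed are given with the results or in the closing section. In both repeats a value is relative to the other mRNAs of its library. A higher value there need not mean more transcript per oocyte. In the targeted pair, Zar1l (the listed symbol of Zar2) was lower in null oocytes at each stage, with log2 differences between -5.31 and -1.15, and Zar1, whose null allele lacks 12 bases and can still be counted, was lower in null growing (-0.61) and GV oocytes (-1.37) but higher in null MII oocytes (1.29). The 8 oocyte markers reached 1 FPKM in every group, apart from Figla in WT MII oocytes (0.276 and 0.687 FPKM). At MII they summed to 3390 and 3986 FPKM in the WT and to 6215 and 7382 FPKM in the null libraries. Oosp1 alone had 2214 and 2881 FPKM of this in WT and 2446 and 2997 FPKM in null libraries. By the test used below, 7 of the 8 were higher in null MII oocytes, where 21.5% of all genes were. The median log2 difference of the 8 was 2.49, and 6 were higher under either other scaling. Zp3 (5.40), Zp1 (4.24), Figla (3.57) and Ooep (3.25) differed most and Oosp1 (0.10) least. The 12 granulosa and cumulus cell markers summed to 28.6 to 31.9 FPKM in WT growing and 14.2 to 22.0 FPKM in null growing libraries. At GV the sums were 17.4 to 19.4 FPKM in WT and 13.3 to 15.4 FPKM in null libraries, and at MII 5.14 to 5.52 FPKM in WT and 7.23 to 8.49 FPKM in null libraries, with Amh, Ptx3 and Foxl2 at or near 0 throughout. Cyp19a1, Kitl and Inha of this list were lower in null growing oocytes (-1.76, -1.23 and -0.50) and Nr5a2 was higher (0.63). At GV the list split as well. Kitl and Fshr were lower in null oocytes (-0.96 and -0.53), and Inha was higher (0.97), with means of 0.461 FPKM in WT and 1.86 FPKM in null oocytes. The marker sums thus moved in the same direction as Aurkc, Birc5 and Tpx2 before maturation and as Aurkb and Birc5 at MII, and their part in these results was not tested. The 6 genes of dividing somatic cells (among them Pcna, Ccna2 and Mki67) were all expressed in every group, with sums of 154 to 189 FPKM in WT MII and 189 to 213 FPKM in null MII libraries. The 6 immune markers summed to at most 3.29 FPKM in any library.

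In WT growing oocytes Birc5 stood far above the other genes, at 1284 ± 6.43 FPKM (mean ± SD, n = 2 here and throughout). Aurka followed at 210 ± 2.52, then Aurkc at 151 ± 30.6 and Cdca8 at 139 ± 0.577, whose libraries overlapped, then Tpx2 at 55.7 ± 1.33, Incenp at 16.5 ± 0.506 and Aurkb at 10.5 ± 1.33 FPKM. The order at the WT GV stage was the same apart from Aurkc and Cdca8, whose libraries again overlapped. At WT MII, Cdca8, Birc5 and Aurkc lay together at 57.5 ± 0.0641, 54.6 ± 3.92 and 54.2 ± 6.17 FPKM. Aurkb was the lowest gene in all 6 WT libraries, but in null oocytes it lay above Incenp in the growing and MII groups, and at GV the libraries of the pair overlapped. Birc5 remained the highest gene in null MII oocytes. Birc5 made up 26.2% and 24.6% of the summed FPKM of the 7 genes in the WT MII libraries and 77.9% and 76.7% in the null MII libraries, against 65.9% to 72.5% in the GV libraries of both genotypes.

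**Figure D1:**
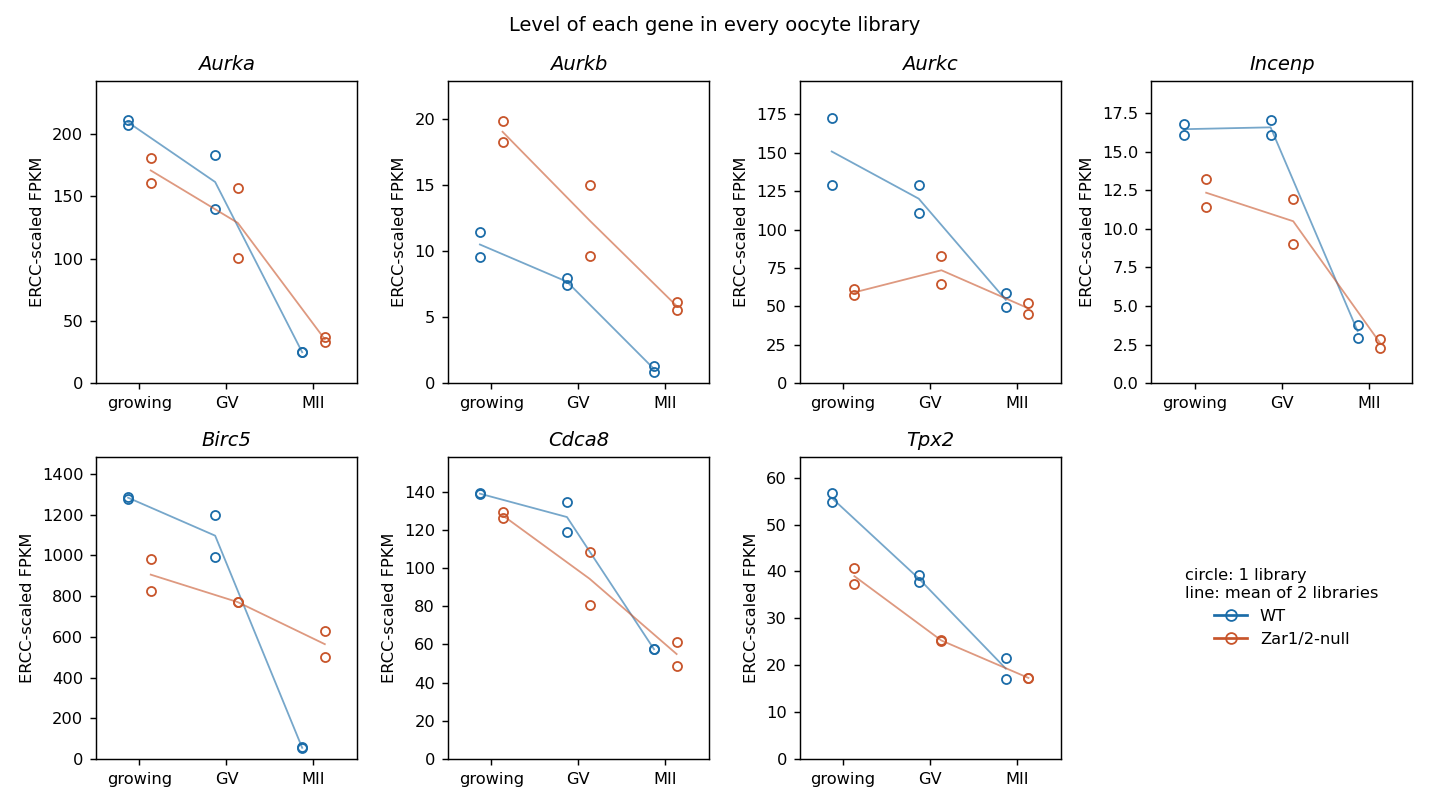
ERCC-scaled FPKM (vertical axis, linear, from 0) of each gene at the growing, GV and MII stages, with 1 circle per library and lines through the means of 2 libraries, WT in blue and Zar1/2-null in orange. Aurkb circles of null oocytes lie above those of WT at each stage, and Birc5 drops to 51.9 and 57.4 FPKM in WT MII oocytes but stays at 501 and 627 FPKM in null MII oocytes.

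Aurka (chromosome 2 of mm9, 172181690 to 172196035, minus strand), the kinase of the spindle poles, had 208 and 211 FPKM in the WT growing libraries and 181 and 161 FPKM in the null growing libraries. At GV it had 183 and 140 FPKM in WT and 100.6 and 157 FPKM in null oocytes. At MII it had 24.9 and 24.8 FPKM in WT and 37.5 and 33.0 FPKM in null oocytes. The null libraries were thus the lower pair in growing oocytes, overlapped with WT at GV and were the higher pair at MII. None of the 3 differences between genotypes passed the test in limma, a linear model fitted over all 11502 genes on log2(FPKM + 1), with Benjamini-Hochberg (BH) adjustment. The log2 difference, null minus WT, was -0.29 (SE 0.21, adjusted p = 0.299) in growing, -0.35 (SE 0.21, adjusted p = 0.193) in GV and 0.48 (SE 0.21, adjusted p = 0.105) in MII oocytes, each from limma with BH adjustment. The sign at GV turned with either other scaling (0.10 and 0.16). The MII difference passed when only the 4 MII libraries were fitted (adjusted p = 0.0367) and without null GV replicates 1 or 2 (0.0391 and 0.0388, limma with BH adjustment). The GV difference passed without null GV replicate 2, at -0.67 (adjusted p = 0.0233, limma with BH adjustment).

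Aurkb (chromosome 11, 68859149 to 68865166, plus strand), the kinase of the passenger complex in somatic cells, was the scarcest of the 3 kinases, and the one gene of the 7 that was higher in null oocytes at every stage. The growing libraries had 9.55 and 11.4 FPKM in WT and 18.2 and 19.8 FPKM in null oocytes. At GV the values were 7.40 and 7.95 FPKM in WT against 9.65 and 15.0 FPKM in null oocytes. At MII they were 0.824 and 1.33 FPKM in WT against 6.17 and 5.52 FPKM in null oocytes. No null library overlapped with a WT library of its stage, and the null MII libraries lay below all 4 WT growing and GV libraries. The log2 difference was 0.80 in growing oocytes (SE 0.20, adjusted p = 0.00919), 0.59 in GV oocytes (SE 0.20, adjusted p = 0.0329) and 1.73 in MII oocytes (SE 0.20, adjusted p = 4.23e-05), each from limma with BH adjustment. In mean FPKM these were 1.81-fold, 1.60-fold and 5.41-fold, and the added 1 FPKM makes the log2 values of so low a gene too small. Aurkb kept its sign and its call at all 3 stages when the ERCC factor was divided out (1.08, 1.03 and 2.01) and with median scaling (1.04, 1.09 and 1.97).

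The MII difference of Aurkb passed whichever library was left out (adjusted p between 2.01e-05 and 0.00103, limma with BH adjustment). The call in growing oocytes was lost without WT growing replicate 1, at 0.69 (adjusted p = 0.0771), and without null growing replicate 2, at 0.75 (adjusted p = 0.0649, both limma with BH adjustment). The GV call was lost without WT GV replicate 1, at 0.54 (adjusted p = 0.152), without WT GV replicate 2, at 0.63 (adjusted p = 0.0773), and without null GV replicate 2, at 0.30 (adjusted p = 0.227, each limma with BH adjustment). It was also lost with a pseudocount of 0.1 FPKM, without the filter on low values and with the 4 GV libraries alone (adjusted p = 0.0579, 0.0622 and 0.114, limma with BH adjustment).

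Aurkc (chromosome 7, 6948154 to 6955656, plus strand), the germ cell kinase of the passenger complex, was lower in null oocytes before maturation. It had 129 and 172 FPKM in the WT growing libraries and 57.2 and 61.1 FPKM in the null growing libraries. At GV it had 129 and 111 FPKM in WT and 64.4 and 82.7 FPKM in null oocytes, and at MII 58.6 and 49.9 FPKM in WT and 52.2 and 45.3 FPKM in null oocytes. The genotypes were fully apart in growing and GV oocytes and overlapped at MII. The log2 difference was -1.32 in growing oocytes (SE 0.19, adjusted p = 0.000408), -0.71 in GV oocytes (SE 0.19, adjusted p = 0.0119) and -0.15 in MII oocytes (SE 0.19, adjusted p = 0.636), each from limma with BH adjustment. The growing difference passed under all 3 scalings (-1.04 and -1.08 in the others) and whichever library was left out. The GV call was lost under both other scalings (-0.26 and -0.20), without WT GV replicate 1 (adjusted p = 0.0898), without null GV replicate 1 (adjusted p = 0.0844) and with the 4 GV libraries alone (adjusted p = 0.0504, limma with BH adjustment). With median scaling Aurkc was lower in null MII oocytes, at -0.52 (adjusted p = 0.0210, limma with BH adjustment).

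The level of Aurkc is less certain than those of the other genes. Of the 899 stretches of 50 bases in its annotated transcript, the read length after trimming, 716 (79.6%) also occur elsewhere in the mm9 genome. The largest number, 689, lie in the pseudogene Gm12463 on chromosome 4 (44765222 to 44766009). Between 9 and 96 lie in each of 9 places on chromosome 7 with no annotated gene, and some stretches occur in more than 1 of these places. Since the authors kept uniquely mapped reads, the value rests on reads from the remaining stretches, and Gm12463 has no row in the table. The share was 10.0% for Birc5, 0.857% for Tpx2, 0.0634% for Cdca8 and 0% for Aurka, Aurkb and Incenp. No stretch of 50 bases was shared between any of the 7 genes, although the coding sequences of the kinases were 73.5% to 77.3% identical, so reads of one kinase could not be counted for another by identity over the whole read.

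Within a library the make-up of the Aurora transcripts does not depend on the ERCC factor. It does rest on the less certain level of Aurkc, so the shares and ratios are given for comparison between groups. Aurkb made up 2.75% and 2.89% of the summed Aurora FPKM in the WT growing libraries and 7.10% and 8.19% in the null growing libraries. At GV it made up 2.32% and 3.07% in WT and 5.53% and 5.87% in null oocytes, and at MII 0.977% and 1.75% in WT and 6.44% and 6.58% in null oocytes. Each null library lay above every WT library. The ratio of Aurkb to Aurkc was 0.0739 and 0.0662 in WT growing and 0.318 and 0.324 in null growing oocytes, and 0.0141 and 0.0267 in WT MII against 0.118 and 0.122 in null MII oocytes. Aurkc took the larger share at MII, with 69.5% and 65.6% in WT and 54.4% and 54.0% in null oocytes, against 37.3% to 43.6% in WT and 22.3% to 25.3% in null growing oocytes.

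**Figure D2:**
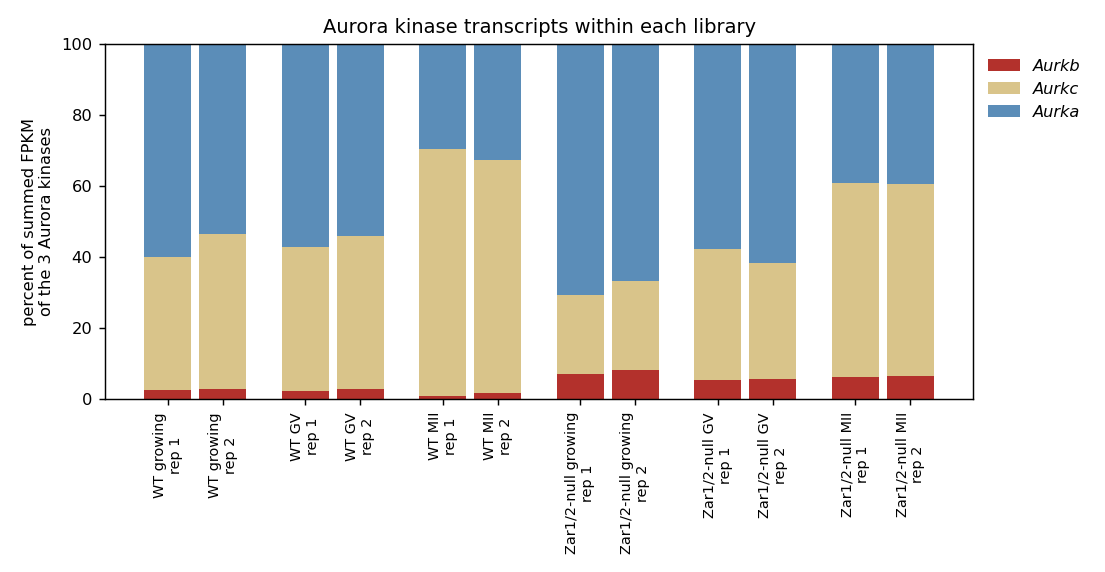
Percent of the summed FPKM of Aurka, Aurkb and Aurkc taken by each kinase (vertical axis, 0 to 100), with 1 bar per library, and libraries of the 6 groups side by side. The Aurkb segment at the base spans 0.977% to 3.07% in the 6 WT libraries and 5.53% to 8.19% in the 6 null libraries.

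Incenp (chromosome 19, 9946787 to 9974023, minus strand), the scaffold that activates Aurora B and C, was a scarce mRNA. It had 16.1 and 16.8 FPKM in WT growing and 11.4 and 13.2 FPKM in null growing oocytes. At GV it had 16.1 and 17.1 FPKM in WT against 11.95 and 9.04 FPKM in null GV oocytes. At MII it had 2.96 and 3.79 FPKM in WT and 2.88 and 2.30 FPKM in null oocytes. Both null libraries were below both WT libraries at each stage. The GV difference passed the test at -0.62 (SE 0.17, adjusted p = 0.0118), while -0.39 in growing (SE 0.17, adjusted p = 0.0922) and -0.28 in MII oocytes (SE 0.17, adjusted p = 0.242) did not, each from limma with BH adjustment. The GV call was lost without the ERCC factor (-0.21), with median scaling (-0.15), without WT GV replicate 2 (adjusted p = 0.0535), without null GV replicate 2 (adjusted p = 0.0750) and with the 4 GV libraries alone (adjusted p = 0.0678, limma with BH adjustment). At MII Incenp was lower in null oocytes under the other scalings, at -0.57 without the ERCC factor (adjusted p = 0.0392) and -0.71 with median scaling (adjusted p = 0.00962, both limma with BH adjustment).

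Birc5 (chromosome 11, 117710565 to 117717069, plus strand), which encodes the chromatin-reading subunit survivin, was lower in null oocytes before maturation and much higher after it. The growing libraries had 1279 and 1288 FPKM in WT and 984 and 827 FPKM in null oocytes. At GV they had 1200 and 994 FPKM in WT and 772 and 769 FPKM in null oocytes. The genotypes did not overlap at any stage, and the order of the pair turned between GV and MII. The log2 difference was -0.51 in growing oocytes (SE 0.17, adjusted p = 0.0377) and -0.50 in GV oocytes (SE 0.17, adjusted p = 0.0334), both from limma with BH adjustment. The 57.4 and 51.9 FPKM of WT MII and the 627 and 501 FPKM of null MII oocytes gave 3.34 (SE 0.17, adjusted p = 5.14e-08, limma with BH adjustment). That MII difference was 3.12 without the ERCC factor and 2.99 with median scaling, and lay between 3.18 and 3.50 whichever library was left out.

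The lower level of Birc5 before maturation was less firm. Both calls were lost without the ERCC factor (-0.22 and -0.05) and with median scaling (-0.26 and, with its sign turned, 0.01). The call in growing oocytes was also lost without WT growing replicates 1 or 2 (adjusted p = 0.136 each), null growing replicate 2 (0.228) or WT MII replicates 1 or 2 (0.0505 and 0.0503, limma with BH adjustment). The GV call was lost without WT growing replicates 1 or 2 (adjusted p = 0.0540 each), WT GV replicate 1 (0.203) or null GV replicates 1 or 2 (0.0972 and 0.0920, limma with BH adjustment). Without the filter on low values the adjusted p was 0.0671 and 0.0646, and with the 4 libraries of the stage alone 0.0631 and 0.112 (limma with BH adjustment).

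Cdca8 (chromosome 4, 124595709 to 124616555, minus strand), which encodes borealin, did not pass the test at any stage. The growing libraries had 139 and 139 FPKM in WT and 129 and 126 FPKM in null oocytes, and the GV libraries 135 and 119 FPKM in WT and 80.5 and 108 FPKM in null oocytes. At MII it had 57.6 and 57.5 FPKM in WT and 61.5 and 48.5 FPKM in null oocytes, which overlapped. The log2 difference was -0.12 (SE 0.17, adjusted p = 0.621), -0.43 (SE 0.17, adjusted p = 0.0649) and -0.07 (SE 0.17, adjusted p = 0.833) in growing, GV and MII oocytes, each from limma with BH adjustment. The sign of the first 2 turned without the ERCC factor (0.16 and 0.015) and with median scaling (0.12 and 0.074). With median scaling the MII difference passed at -0.44 (adjusted p = 0.0188), and without null GV replicate 2 the GV difference passed at -0.65 (adjusted p = 0.0201, both limma with BH adjustment). An exon of Cdca8 overlaps the non-coding gene 9930104L06Rik on the other strand, and these libraries do not keep the strand.

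The ratio of Birc5 to Cdca8, the mRNAs of subunits that bind each other in the complex, was 8.35 to 9.24 in the 4 WT growing and GV libraries and 6.56 to 9.59 in the 4 null ones. It fell to 0.997 and 0.902 in the WT MII libraries and was 10.2 and 10.3 in the null MII libraries. The ratio of Birc5 to Incenp was 19.4 and 13.7 in WT MII and 218 and 217 in null MII oocytes. These ratios are free of the ERCC factor, and in both the null MII libraries lay above every growing and GV library.

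Tpx2 (chromosome 2, 152673700 to 152721057, plus strand), whose protein activates Aurora A on spindle microtubules, was lower in null oocytes before maturation. It had 56.6 and 54.8 FPKM in WT growing and 40.7 and 37.3 FPKM in null growing oocytes, and 39.2 and 37.8 FPKM in WT GV against 25.3 and 25.3 FPKM in null GV oocytes. At MII it had 17.1 and 21.5 FPKM in WT and 17.3 and 17.3 FPKM in null oocytes, which overlapped. In mean FPKM the null level was 70.0% of WT in growing and 65.6% in GV oocytes. The study, which called changes above 3-fold, described Tpx2 mRNA in null oocytes as comparable to WT at every stage. The log2 difference was -0.50 in growing oocytes (SE 0.14, adjusted p = 0.0182), -0.59 in GV oocytes (SE 0.14, adjusted p = 0.00714) and -0.14 in MII oocytes (SE 0.14, adjusted p = 0.535), each from limma with BH adjustment. Both calls were lost under the other scalings, which gave -0.22 and -0.26 in growing and -0.15 and -0.09 in GV oocytes. At MII these scalings gave -0.38 (adjusted p = 0.0448) and -0.51 (adjusted p = 0.00732, limma with BH adjustment). The call in growing oocytes was lost without WT growing replicate 1 (adjusted p = 0.0895), WT growing replicate 2 (0.0634) or null growing replicate 2 (0.110), and the GV call with the 4 GV libraries alone (0.0532, limma with BH adjustment).

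**Figure D3:**
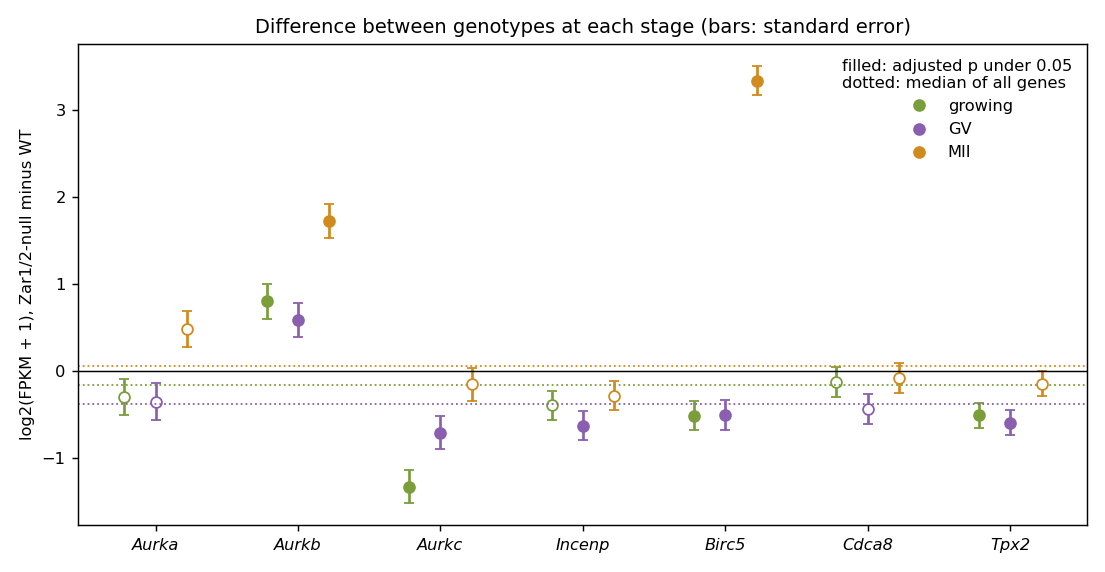
Difference in log2(FPKM + 1), Zar1/2-null minus WT (vertical axis), for each gene in growing, GV and MII oocytes, with bars of 1 standard error from limma, filled circles for an adjusted p under 0.05 and dotted lines for the median of all 11502 genes at each stage. Aurkb is above 0 at all 3 stages (0.80, 0.59 and 1.73), Aurkc is lowest in growing oocytes (-1.32), and Birc5 turns from -0.51 and -0.50 to 3.34 at MII.

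As counts, 4 of the 7 genes passed the test in growing oocytes, 1 higher and 3 lower in null oocytes, where 35.0% of all genes passed, 10.6% higher and 24.4% lower. In GV oocytes 1 was higher and 4 were lower, where 2.83% of all genes were higher and 40.6% lower. In MII oocytes 2 were higher and 0 lower in limma, where 21.5% of all genes were higher and 10.3% lower. In these deposited values 0 of the 7 were lower there at an unadjusted p under 0.05 as well. After BH adjustment in limma, 2 were lower without the ERCC factor and 4 with median scaling. By the order of libraries alone, 1 gene was higher and 6 were lower in growing oocytes (22.4% and 47.4% of all genes), 1 higher and 5 lower at GV (6.79% and 63.6%), and 3 higher and 1 lower at MII (43.5% and 27.8%). The whole table shifted with the genotype: the median log2 difference of all genes was -0.16 in growing, -0.38 in GV and 0.06 in MII oocytes. Relative to that median the GV differences were -0.33 for Aurkc, -0.25 for Incenp, -0.21 for Tpx2 and -0.13 for Birc5, and 0.96 for Aurkb. The split of all calls moved with the scaling too, from 30.4% higher in growing oocytes and 6.51% at GV to 54.8% and 34.7% without the ERCC factor. At MII it moved from 67.6% to 51.2%.

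**Figure D4:**
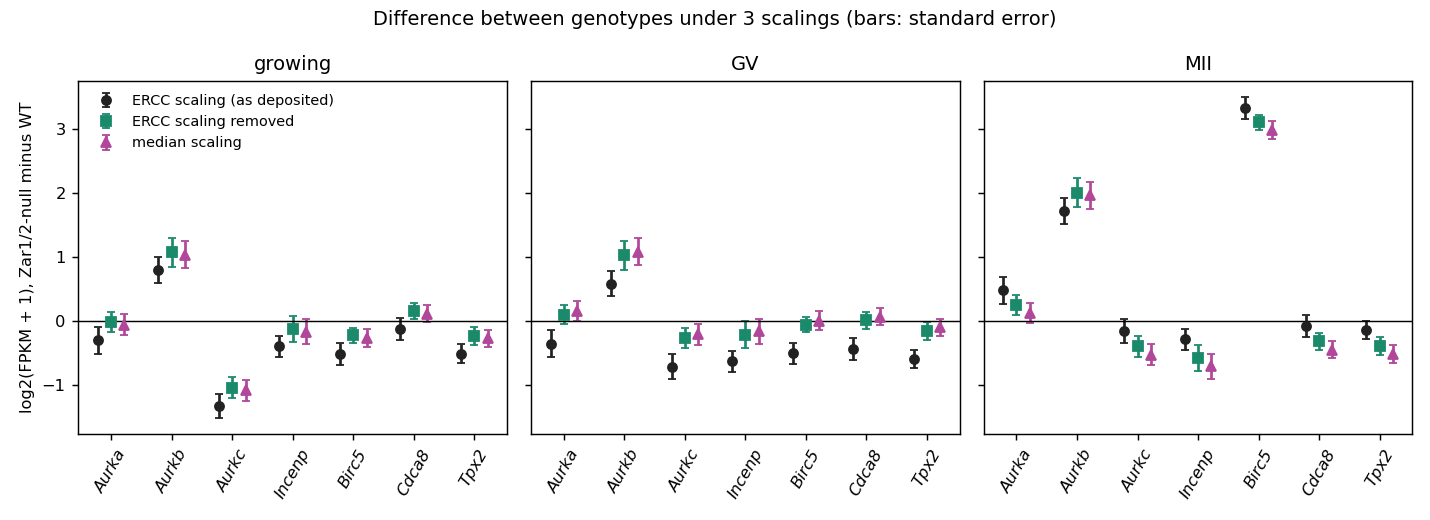
Difference in log2(FPKM + 1), Zar1/2-null minus WT (vertical axis), in growing, GV and MII oocytes for the values as deposited (circles), with the ERCC factor divided out (squares) and with median scaling (triangles), with bars of 1 standard error. Aurkb stays between 0.59 and 2.01 and Birc5 at MII between 2.99 and 3.34 under the 3 scalings, while the negative values at GV move to between -0.26 and 0.16.

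From growing to GV oocytes, Tpx2 alone passed the test in WT oocytes, at -0.52 (SE 0.14, adjusted p = 0.0201, limma with BH adjustment), 1 of 7 where 28.7% of all genes were lower. In null oocytes 3 of 7 were lower, where 55.9% of all genes were: Tpx2 at -0.61 (adjusted p = 0.00380), Aurkb at -0.62 (adjusted p = 0.0190) and Cdca8 at -0.45 (adjusted p = 0.0450, each limma with BH adjustment). None of these 4 calls held without the ERCC factor or with median scaling. Under these scalings Aurkc and Birc5 were instead higher at GV in null oocytes, relative to their libraries (0.85 and 0.33 without the ERCC factor, 0.94 and 0.41 with median scaling). The WT call of Tpx2 was also lost without WT growing replicate 1, WT growing replicate 2 or WT GV replicate 2 (adjusted p = 0.0830, 0.0821 and 0.0944, limma with BH adjustment). In null oocytes the Aurkb call was lost without null GV replicate 1 (adjusted p = 0.174) or null growing replicate 2 (0.0910), each from limma with BH adjustment. That of Cdca8 was lost without null GV replicate 1 (adjusted p = 0.297), either null growing library, either WT growing library, either WT MII library or WT GV replicate 2 (between 0.0501 and 0.137, limma with BH adjustment). The difference between the genotypes in the change during growth passed for 0 of the 7 genes in limma, where 13.9% of all genes passed, and 1 of them, Aurkc, had an unadjusted p under 0.05. Its value was 0.61 (SE 0.27, adjusted p = 0.153, limma with BH adjustment), and the test does not show that the genotypes changed alike.

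From GV to MII all 7 genes were lower in both genotypes in the deposited values, where 93.4% of all WT genes and 68.7% of all null genes were. In WT oocytes Birc5 lost the most of the 7: its MII level was 4.98% of its GV level (log2 change -4.30, SE 0.17, adjusted p = 1.02e-09, limma with BH adjustment). Aurkb kept 14.1%, Aurka 15.4% and Incenp 20.3%, and Aurkc, Cdca8 and Tpx2 kept 45.2%, 45.4% and 50.1%, where the median of the 10054 genes at 1 FPKM or more at GV was 19.0%. In null oocytes the order was different, with 73.2% left for Birc5, 68.4% for Tpx2, 66.3% for Aurkc, 58.2% for Cdca8, 47.5% for Aurkb, 27.4% for Aurka and 24.7% for Incenp, against a median of 36.4% over 9139 genes. The median gene fell by 1.28 in WT and by 0.72 in null oocytes on the log2 scale, so that Aurkc, Cdca8 and Tpx2 lay above the median in WT oocytes (by 0.15, 0.16 and 0.31) and the other 4 below it (Birc5 by -3.01, Aurka by -1.36, Aurkb by -0.79 and Incenp by -0.73). Incenp stands above the median gene as a percent left but below it on the log2(FPKM + 1) scale. With the ERCC factor divided out, Aurkc, Cdca8 and Tpx2 were higher at MII than at GV in WT oocytes, relative to their libraries (0.60, 0.61 and 0.74). Birc5, Aurkb, Aurka and Incenp were still lower (-2.56, -0.97, -0.93 and -0.52). With median scaling Birc5 alone stayed lower (-1.87), whereas Aurka (-0.23, adjusted p = 0.212) and Aurkb (-0.37, adjusted p = 0.132) lost their calls in limma with BH adjustment and Incenp turned to 0.14. In null oocytes Birc5, Tpx2 and Aurkc were higher at MII relative to their libraries without the ERCC factor, at 0.60, 0.50 and 0.47 (adjusted p = 0.000985, 0.00993 and 0.0260, limma with BH adjustment). The decreases of Aurkc and Birc5 in null oocytes in the deposited values were -0.58 and -0.46 (adjusted p = 0.0183 and 0.0316, limma with BH adjustment). That of Aurkc was lost without null GV replicate 2 (adjusted p = 0.129) or null MII replicate 2 (0.105), and that of Birc5 without null GV replicates 1 or 2 (0.0890 and 0.0866), null MII replicate 2 (0.206) or WT growing replicates 1 or 2 (0.0503 and 0.0502, limma with BH adjustment).

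**Figure D5:**
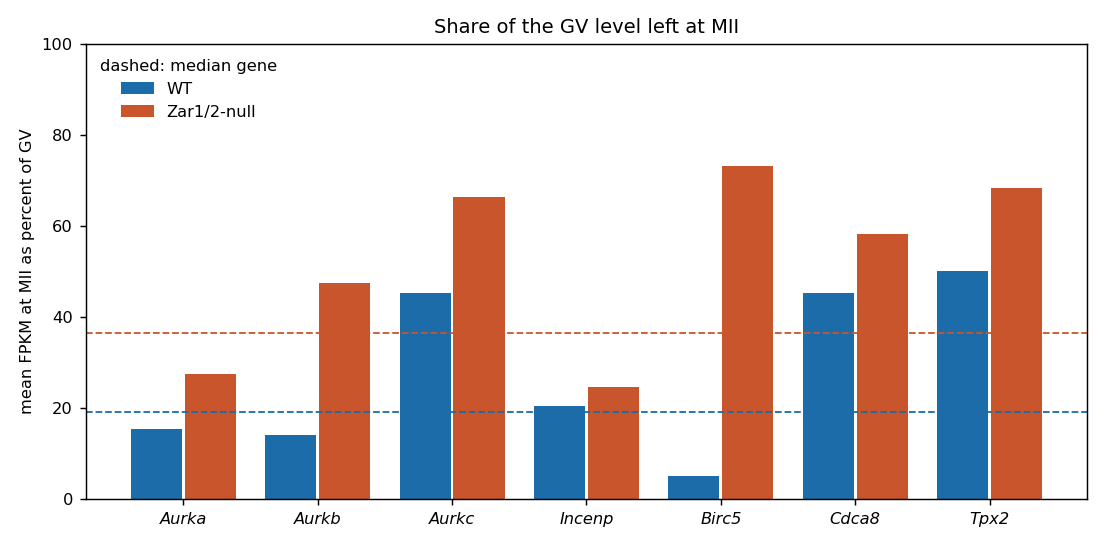
Mean ERCC-scaled FPKM at MII as a percent of the mean at GV (vertical axis, 0 to 100) for each gene, WT in blue and Zar1/2-null in orange, with dashed lines at the median gene of each genotype (19.0% and 36.4%). Birc5 stands at 4.98% in WT and 73.2% in null oocytes, and Incenp at 20.3% and 24.7%.

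The change from GV to MII differed between the genotypes for 3 of the 7 genes by the test of the difference, all less negative in null oocytes, where 33.9% of all genes passed in that direction. The difference in log2 change was 3.84 for Birc5 (SE 0.24, adjusted p = 5.53e-07), 1.14 for Aurkb (SE 0.28, adjusted p = 0.00987) and 0.83 for Aurka (SE 0.30, adjusted p = 0.0489), each from limma with BH adjustment. The median of all genes was 0.48 in the same measure, so that relative to it Aurka stood at 0.35. The Birc5 and Aurkb differences also passed without the ERCC factor (3.16 and 0.98) and with median scaling (2.98 and 0.88), and whichever library was left out. The Aurka call was lost under both other scalings (0.16, and -0.03 with its sign turned). It was also lost with the replicate number as a block (adjusted p = 0.0515), and on leaving out any library other than WT GV replicate 2 or null GV replicate 2 (up to 0.173, without WT GV replicate 1, limma with BH adjustment). Aurkc, Tpx2, Cdca8 and Incenp had differences of 0.56, 0.45, 0.36 and 0.34 that did not pass (adjusted p between 0.104 and 0.273, limma with BH adjustment), each of which turned negative under both other scalings. The value for Tpx2 passed without WT MII replicate 2, at 0.60 (adjusted p = 0.0487, limma with BH adjustment).

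The libraries were primed with oligo-dT, and the part of poly(A) tail length in these values was not tested. The cytoplasmic polyadenylation element (CPE) is a short U-rich motif near the end of many stored oocyte mRNAs, through which their tails are lengthened during maturation. The motif was searched on the sense strand as TTTTAT or TTTTAAT in the annotated 3′ UTR. The sites nearest to the transcript end are shown for the 3 genes that had one, so that its setting can be read, with the motif in capitals.
Aurka: ttaaaggctattTTTTATgttggagttctg
Aurkb: tgaagaacaacaTTTTATaataaagtctta
Tpx2: gagatttcttgaTTTTATatatttggtttt
In mm9 these are chr2:172181737-172181766 on the minus strand for Aurka, chr11:68865118-68865147 on the plus strand for Aurkb and chr2:152720344-152720373 on the plus strand for Tpx2. The motif began 59 bases before the transcript end in Aurka and 37 in Aurkb, where the polyadenylation signal AATAAA follows directly. In Tpx2 it began 702 bases before the end of the longest annotated transcript and 35 before the end of 2 others. From separate assays of tail length and of a 3′ UTR reporter, the study reports that Tpx2 polyadenylation and translation failed in maturing null oocytes. No match was found in the 3′ UTRs of the Incenp, Birc5 and Cdca8 transcripts used (380, 424 and 521 bases), and Aurkc has no annotated 3′ UTR. A match within the last 150 bases was present in 26.4% of the 9448 genes with a 3′ UTR of at least that length, and one anywhere in the 3′ UTR in 63.4%. The polyadenylation signal, searched as AATAAA or ATTAAA, had a match in that window in 82.7% of these genes, and Aurka had 0.

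Genes around the Aurora kinases were counted from 4 lists. In the list of Aurora A regulators and spindle partners, 13 of 15 listed genes could be tested. In MII oocytes 3 were higher in null oocytes and 1 lower (21.5% and 10.3% of all genes), which became 3 and 4 under both other scalings, with a median log2 difference of -0.01 against 0.06 for all genes. Aurkaip1, named for binding Aurora A, had 0.667 ± 0.0419 FPKM in WT and 8.21 ± 2.78 FPKM in null MII oocytes. The log2 difference was 2.43 (SE 0.19, adjusted p = 1.90e-06, limma with BH adjustment). Its WT MII level lay under 1 FPKM, where the added 1 FPKM shapes the log2 difference. Ran, the GTPase that frees TPX2 from importin, had 11.9 ± 2.18 against 23.2 ± 3.12 FPKM (log2 difference 0.92) and Kpna2, an importin that binds TPX2, 26.1 ± 2.06 against 48.9 ± 7.31 FPKM (0.87). All 3 passed under each scaling, and Kpna2 lost its call without WT MII replicate 1 (adjusted p = 0.0616) or null MII replicate 1 (0.0698, limma with BH adjustment). In GV oocytes 4 of the 13 were lower and 0 higher, where 40.6% and 2.83% of all genes were, among them Kif11, the bipolar spindle kinesin, at -0.999 (SE 0.13) and Nedd9, a scaffold that activates Aurora A, at -0.86 (SE 0.12), both of which also passed under the other scalings. Hmmr, a spindle pole protein that binds TPX2, was lower in growing and GV oocytes, at -0.95 and -1.15, and was the only gene of the list called in growing oocytes. It lost both calls under the other scalings. The growing one was also lost without WT growing replicates 1 or 2 (adjusted p = 0.0563 and 0.0765) or null growing replicate 2 (0.123), and the GV one without WT GV replicate 1 (0.0574, limma with BH adjustment). Ckap5, which encodes a microtubule polymerase, was lower at GV as well (-0.61), but lost the call under the other scalings, without WT GV replicate 1 (adjusted p = 0.0632) and with the 4 GV libraries alone (0.0712, limma with BH adjustment). In growing oocytes under the other scalings 1 gene of the list was higher and 0 were lower.

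The list of genes that bring the passenger complex to the centromere held 11 genes, all tested. None was higher in growing or GV oocytes, where 1 and 8 were lower (24.4% and 40.6% of all genes). At MII 3 were higher and 1 lower (21.5% and 10.3% of all genes), with a median log2 difference of -0.06 against 0.06 for all genes, which became 2 and 3 without the ERCC factor and 2 and 5 with median scaling. Ccnb1, the cyclin that activates Cdk1, was the 1 call in growing oocytes (-0.66) and was also lower at GV (-0.71). It lost both calls under the other scalings. Both were also lost without the filter on low values (adjusted p = 0.0706 and 0.0512) and with the 4 libraries of the stage alone (0.0651 and 0.0764, limma with BH adjustment). The first was also lost without WT growing replicates 1 or 2 (adjusted p = 0.121 and 0.127) or null growing replicate 2 (0.265), and the second without WT GV replicate 1 (0.169) or null GV replicate 1 (0.152, limma with BH adjustment). At GV the lower ones included Sgol2, the shugoshin that protects centromeric cohesion, at -0.89 (SE 0.17), and the checkpoint genes Bub1 and Bub3 at -0.68 and -0.67, but 0 of the 11 passed at GV under either other scaling. The GV calls of Bub1 and Bub3 were also lost without WT GV replicate 1 (adjusted p = 0.0822 and 0.111) or null GV replicate 1 (0.0516 and 0.0925) and with the 4 GV libraries alone (0.0520 and 0.0711, limma with BH adjustment). Bub1 encodes the kinase that marks the centromere for shugoshin. Bub3 had 12.3 ± 0.859 FPKM in WT MII and 22.6 ± 1.96 FPKM in null MII oocytes, a log2 difference of 0.83 (SE 0.18, adjusted p = 0.00452, limma with BH adjustment), and passed under each scaling. Bub1b, another checkpoint kinase gene, was higher at MII at 0.44 (adjusted p = 0.0463, limma with BH adjustment), but lost the call under both other scalings. The call was also lost without the filter on low values (adjusted p = 0.0541) and with the 4 MII libraries alone (0.0857, limma with BH adjustment). Leaving out any library other than the 2 null GV libraries lost it too, with 0.33 without null MII replicate 2. Sgol2 was lower at MII as well, with 10.1 ± 0.562 against 6.53 ± 0.0944 FPKM (log2 difference -0.56, SE 0.17, adjusted p = 0.0290, limma with BH adjustment), also under each scaling. The call was lost without the filter on low values (adjusted p = 0.0526, limma with BH adjustment). It was also lost without any 1 of the 4 MII libraries, at differences between -0.61 (WT MII replicate 1) and -0.51 (WT MII replicate 2). Cdk1, the master mitotic kinase, fell in WT maturation from 68.3 ± 15.8 to 0.245 ± 0.143 FPKM and in null maturation from 48.2 ± 5.69 to 1.67 ± 0.662 FPKM, and the changes differed by 1.56 (SE 0.30, adjusted p = 0.00261, limma with BH adjustment). Cdk1 was chosen after its values were seen, and its WT MII level lay under 1 FPKM, where the added 1 FPKM shapes the log2 change. By this difference 3 of the 11 genes passed, all less negative in null oocytes, where 33.9% of all genes did. The median of all genes was 0.48.

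Among 15 substrates and downstream partners of Aurora B and C, 14 could be tested. In growing oocytes 5 were lower and 0 higher in null oocytes (24.4% and 10.6% of all genes), and at GV 7 were lower and 0 higher (40.6% and 2.83%). Under the other scalings 1 was lower in growing oocytes, and at GV 2 were lower and 2 (without the ERCC factor) or 3 (with median scaling) higher. At MII 5 were higher and 4 lower (21.5% and 10.3% of all genes), with a median log2 difference of 0.33 against 0.06 for all genes, and 4 and 5 or 3 and 6 under the other scalings. Ect2, the RhoA exchange factor of cytokinesis, was the most changed, with 45.4 ± 12.1 FPKM in WT and 13.8 ± 1.07 FPKM in null GV oocytes, and 18.6 ± 0.488 against 2.58 ± 0.252 FPKM at MII. Its log2 differences of -1.62 (SE 0.18, adjusted p = 7.83e-05) and -2.45 (SE 0.18, adjusted p = 9.48e-07, both limma with BH adjustment) passed under each scaling. Racgap1 and Kif23, the partners of centralspindlin at the midzone, were lower in growing oocytes (-0.77 and -0.64) and GV oocytes (-0.90 and -0.91), and Racgap1 passed at both stages under each scaling, whereas Kif23 lost both calls under the others and, in growing oocytes, without WT growing replicates 1 or 2 (adjusted p = 0.0570 and 0.0680) or null growing replicate 2 (0.0959, limma with BH adjustment). Dsn1, of the kinetochore, was lower at GV (-0.78), but not with the 4 GV libraries alone (adjusted p = 0.0529, limma with BH adjustment). Cenpe, a kinetochore motor, and Prc1, a midzone bundling protein, were lower in growing oocytes (-0.57 and -0.49). The calls of these 3 genes were lost under the other scalings. They were also lost without WT GV replicate 1 for Dsn1 (adjusted p = 0.0643), without WT growing replicate 1 (0.0936) or null growing replicate 2 (0.0909) for Cenpe, and without any of the 4 growing libraries for Prc1 (between 0.0800 without null growing replicate 1 and 0.114 without WT growing replicate 1, limma with BH adjustment). Stmn1, a microtubule destabiliser, Kif20a, a midzone kinesin, and Ndc80, of the outer kinetochore, were higher in null MII oocytes, at 1.06, 0.98 and 0.72, under each scaling. The Kif20a call was lost without WT MII replicate 1 (adjusted p = 0.0506) or null MII replicate 2 (0.0644, limma with BH adjustment).

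Of 13 genes of the phosphatases that oppose the Aurora kinases, 12 could be tested. In growing oocytes 2 were higher and 1 lower (10.6% and 24.4% of all genes), and at GV 0 were higher and 7 lower (2.83% and 40.6%). At MII 2 were higher and 2 lower (21.5% and 10.3%), which became 2 and 5 under both other scalings. The catalytic subunits of PP1 split at MII: Ppp1ca had 5.20 ± 0.938 FPKM in WT and 16.5 ± 2.73 FPKM in null oocytes, a log2 difference of 1.496 (SE 0.18, adjusted p = 6.61e-05, limma with BH adjustment). Ppp1cb had 11.03 ± 1.35 against 5.15 ± 0.488 FPKM, a difference of -0.97 (SE 0.18, adjusted p = 0.00182, limma with BH adjustment). Both passed under each scaling. Ppp2r5e, a regulatory subunit of PP2A, was higher in null growing oocytes at 0.67 (SE 0.16, adjusted p = 0.00748), also under each scaling, but not without null growing replicate 2 (adjusted p = 0.0531, limma with BH adjustment). At GV the lower genes included the PP1 subunits Ppp1cb and Ppp1cc (-0.95 each), the PP6 subunit Ppp6r3 (-0.79) and the PP2A subunit Ppp2r5c (-0.64). The 7 lower calls fell to 0 under both other scalings. With the 4 GV libraries alone the call of Ppp2r5c was lost (adjusted p = 0.0700, limma with BH adjustment). That of Ppp2r5c was also lost without WT GV replicate 1 (adjusted p = 0.0537) or null GV replicate 2 (0.0548, limma with BH adjustment).

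The genes with the profile most like each of the 7 were found by Pearson's r on log2(FPKM + 1) over the 12 libraries among 4326 genes whose mean reached 10 FPKM. The libraries share the fall to MII and the ERCC factors, so a high r is the rule here and no test is attached. Birc5 was closest to Lsm6, Gstm5 and Prdx5 (r = 0.997, 0.997 and 0.996). Aurkb was closest to Ccdc56, Creld2 and Gtf2a1l (r = 0.984, 0.983 and 0.981). Aurkc had the least close neighbours, Hsd3b7, Gm2382 and Hist1h1a (r = 0.961, 0.960 and 0.955), and Aurka the closest, Pcmt1, Ift52 and Cdk5rap1 (r = 0.998, 0.997 and 0.996). For Incenp they were Bms1, Trim24 and Phf14 (r from 0.996 to 0.993), for Cdca8 Lyar, Cdc37l1 and Zcchc9 (r at or above 0.99), and for Tpx2 Sfmbt1, Serpinc1 and Tubgcp5 (r from 0.991 to 0.989). Among the 7 genes themselves r lay between 0.316 for Aurkb with Aurkc and 0.969 for Aurka with Cdca8. The pair with the lowest r are the kinases that serve in the same complex.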

How the data were processed

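Libraries were made by Smart-seq2 from oocytes lysed with ERCC spike-in. Per the submitters' processing notes and the study's methods, reads trimmed to 50 bases were mapped to mm9 with TopHat2 (2.1.1), uniquely mapped reads were assembled with Cufflinks (2.2.1), and the authors scaled the deposited FPKM by the spike-in. The table holds no counts, so counting error could not be computed and the depth behind each value is not known from it; every column of the table was used. Here, genes that reached 1 FPKM in some library were fitted as log2(FPKM + 1) in limma (3.58.1, R 4.3.3) with 1 coefficient per group, trended empirical Bayes and Benjamini-Hochberg adjustment over 11502 genes, called at an adjusted p under 0.05, and the fit was tested on simulated data. An exact permutation test of 2 against 2 cannot go below p = 0.333. A fold change on the log2(FPKM + 1) scale understates that of low genes. The ERCC factors were recovered from the values. Alternatives were the factor divided out, a common median, a pseudocount of 0.1 FPKM, no filter, a filter on means under 5 FPKM, a replicate block, no trend, each stage alone, and each library left out. Sequences came from the mm9 genome and its GENCODE annotation (Python 3.11.15, pandas 2.3.3, numpy 2.4.6, Biopython 1.88, matplotlib 3.10.9).

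The genes and lists were chosen with earlier results of these data known. The text names the 7 genes, up to 4 called genes of largest change per list and comparison whose higher group averaged 5 FPKM or more, list genes whose result opposes their list, the 3 profiles most like each gene, the targeted genes and the markers. Of the list genes this gives, it names those of the 3 genotype comparisons and Cdk1, which was chosen after its values were seen.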

Additional observations from a re-analysis of the deposited data

Results flagged for a closer look

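The change from GV to MII differed between Zar1/2-null and WT oocytes, by the test of the difference, for 3 of the 7 genes. For Birc5, null minus WT was 3.84 on the log2 scale. For Aurkb it was 1.14. For Aurka it was 0.83, at an adjusted p of 0.0489 (limma with Benjamini-Hochberg adjustment), a call that was lost without the ERCC factor (0.16), with median scaling (-0.03), with the replicate block (adjusted p = 0.0515) and on leaving out any of 10 of the 12 libraries. The median of all 11502 genes in this measure was 0.48.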

How the results depend on the processing

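Scaling moved the results most. Counts of the 7 genes called, without the ERCC factor and with median scaling, were 1 and 1 lower in null growing oocytes, 0 and 0 lower at GV and 2 and 4 lower at MII. For growth they were 0 and 0 lower in WT, and 2 and 2 higher and 0 and 0 lower in null oocytes. For maturation they were 3 and 3 higher and 4 and 1 lower in WT, and 3 and 4 higher and 2 and 0 lower in null oocytes. At GV 0 were higher with a pseudocount of 0.1 FPKM or without the filter, and 0 higher and 0 lower with the stage alone. Log2 values whose sign turned were, without the ERCC factor and then with median scaling, for null against WT, Cdca8 0.16 and 0.12 in growing oocytes, and at GV Aurka 0.10 and 0.16, Cdca8 0.015 and 0.074, and Birc5 0.0091 (median only). In WT growth they were Aurka 0.0019 (ERCC factor only), Aurkc 0.071 and 0.057, Birc5 0.16 and 0.14, and Cdca8 0.25 and 0.24. In null growth they were Aurka 0.11 and 0.20, Incenp 0.29 and 0.38, Birc5 0.33 and 0.41, Cdca8 0.10 and 0.19, and Tpx2 0.018 (median only). In WT maturation they were Aurkc 0.60 and 1.30, Cdca8 0.61 and 1.31, Tpx2 0.74 and 1.43, and Incenp 0.14 (median only). In null maturation they were Aurkb 0.017 and 0.51, Aurkc 0.47 and 0.98, Birc5 0.60 and 1.11, Cdca8 0.28 and 0.80, and Tpx2 0.50 and 1.010. In the genotype difference of growth they were Aurka 0.11 and 0.21, Tpx2 0.073 and 0.17, and Aurkb 0.047 and Incenp 0.0100 (median only). In that of maturation they were Aurkc -0.13 and -0.32, Incenp -0.36 and -0.55, Cdca8 -0.33 and -0.51, Tpx2 -0.23 and -0.42, and Aurka -0.029 (median only). The cause was not tested; these scalings differ by 1 factor per library. The share of all calls that were higher moved from 0.112% to 29.3% and 50.6% in WT maturation, from 0.303% to 32.6% and 53.2% in null maturation, from 8.80% to 53.1% and 47.3% in WT growth, from 7.85% to 40.1% and 47.4% in null growth, from 18.6% to 37.3% and 48.6% for the difference of growth and from 98.1% to 70.1% and 54.0% for that of maturation. With median scaling the share was 50.4% in growing, 40.4% in GV and 44.6% in MII null oocytes against WT.

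Leaving out each library in turn gave counts of 0 to 1 higher and 1 to 3 lower in growing oocytes, 0 to 1 higher and 2 to 4 lower at GV, 0 to 1 lower in WT growth and 1 to 4 lower in null growth. Signs turned within -0.24 to 0.095 for Cdca8 and -0.30 to 0.016 for Tpx2 at MII, -0.030 to 0.049 for Incenp in WT growth, and, in the genotype difference of growth, -0.37 to 0.27 for Aurka, -0.51 to 0.076 for Aurkb and -0.13 to 0.14 for Birc5. Of 756 values for the 7 genes with 1 library left out, 688 kept direction and side of the threshold. By the labels the libraries share only a number. The deviations of same-numbered libraries correlated between -0.117 and 0.163, not above 0.1 for every pair, and the WT growing library of each number has an ERCC factor of 1, so the authors' scaling runs within a number. The replicate block changed 1 of 63 values, Aurka in the genotype difference of maturation (0.83, adjusted p = 0.0515, limma with Benjamini-Hochberg adjustment). A crossed pairing of the null GV libraries, chosen after seeing the data, called 2 values more and lost 0 of 35. Without the filter on low values 6 of 63 values lost their call: Aurkb at GV, Birc5 in growing and GV oocytes and in null maturation (adjusted p = 0.0633), Cdca8 in null growth (0.0578) and Aurka in the genotype difference of maturation (0.0891). With a filter on means under 5 FPKM 1 was lost, Cdca8 in null growth (0.0537, all limma with Benjamini-Hochberg adjustment). Without the trend 63 of 63 values kept direction and side.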
